A study of Mus musculus with 27 samples.

Results

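Opposite-strand antisense long noncoding RNA genes are noncoding genes that are named after the gene on the other DNA strand, with the suffix os and sometimes a digit. They were taken as the rows of the deposited count or TPM table whose GENCODE type was not protein coding and whose symbol had that suffix. There were 292 of them, with 289 symbols, among 55202 genes in either table. The count table held 270 of them among its 37332 genes, and 22 stood in the TPM table alone. GENCODE typed 258 as antisense, 14 as processed transcripts, 12 as lincRNAs, 3 as bidirectional promoter lncRNAs and 5 as other types.

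Polyadenylated RNA longer than 200 nt was sequenced from chromatin, soluble nucleoplasm and cytoplasm of 3 mouse cell types, in 3 biological replicates each, which gave 9 groups and 27 libraries. The mESC groups were the E14 embryonic stem cell line, kept on gelatin with LIF, and the mNPC groups were a neural progenitor cell line that received EGF and FGF at 10 ng/ml every day. The mCtx groups were primary cortical neurons cultured for 5 days. No treatment or engineered allele was named for any group. Each of the first 2 cell types was 1 line, so differences between cell types are also differences between lines and media. The cytoplasm, in the same cell type, was the reference for a fraction, and values are CPM, read counts divided by the library's size after TMM scaling. A CPM value is a share of a library, so a fold change between fractions is a change of share and not of molecules per cell, and fewer expressing cells cannot be told apart from less RNA per cell.

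Many mammalian promoters fire in both directions, and the outward transcript of such a promoter is often a short-lived noncoding RNA that is degraded in the nucleus by the exosome. Other opposite-strand genes start inside the sense gene or run into it tail to tail. Several are well studied: Dlx6os1, also called Evf2, lies in the Dlx5 and Dlx6 locus of forebrain inhibitory neurons, and an antisense RNA to Uchl1 can raise the translation of its sense mRNA. A transcript that stays at its site of synthesis is recovered with chromatin, whereas an exported one is recovered from the cytoplasm.

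Library totals ran from 10622897 to 24537526 counts. Mitochondrial genome genes held 0.0321% to 0.0435% of counts in mESC cytoplasm, 0.317% to 0.504% in mNPC cytoplasm and 2.44% to 2.64% in mCtx cytoplasm. In nucleoplasm they held 3.84% to 4.43%, 8.81% to 11.7% and 6.41% to 6.70%, in the same order. In chromatin the shares were 0.523% to 0.724%, 0.356% to 0.760% and 1.26% to 1.54%. The fractions thus differed in make-up between cell types, and their purity was not measured here. Pluripotency markers summed to 1582 to 1923 CPM in mESC chromatin and to at most 9.69 CPM in mNPC or mCtx chromatin, with Pou5f1, Zfp42 and Utf1 at 0 counts in both. Neural progenitor markers summed to 2030 to 2119 CPM in mNPC chromatin, and neuron markers to 3455 to 3525 CPM in mCtx chromatin against 1035 to 1214 CPM in mNPC chromatin. Other cells' markers were present too: inhibitory neuron markers reached 153 to 162 CPM and astrocyte markers 314 to 322 CPM in mCtx chromatin, and astrocyte markers 1078 to 1413 CPM in mNPC chromatin. Endothelium markers summed to 99.4 to 167 CPM in mESC chromatin and to as much as 548 CPM in mESC nucleoplasm. The mESC libraries of the same number deviated together from their group means. Correlations across genes between chromatin and cytoplasm were 0.569, 0.264 and 0.506 for replicates 1, 2 and 3. Between nucleoplasm and cytoplasm they were 0.607, 0.272 and 0.529. Replicate 1 had the highest, so counts of called genes in comparisons with mESC are given without its 3 libraries as well. Replicates 2 and 3 were not left out of all fractions in this way.

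A sense gene was matched for all but 3 of the 270 count-table genes, in mm10 coordinates. Inside the sense gene lay 125 of them. Another 71 had a start that overlapped the sense gene head to head, and 33 started back to back with no overlap. The ends overlapped tail to tail for 22, 8 faced the sense gene tail to tail without overlap, and 8 contained the sense gene. RefSeq (GRCm38.p6) windows of 300 bases, from 250 before to 50 after a transcription start, covered the whole stretch between the 2 starts for 14 of the 22 back-to-back pairs with enough counts to test. These stretches were 18 to 239 bases long with a GC content of 51.2% to 85.8%. The GC box (GGGCGG, a site of the Sp1 family) was found in 5 of the 14 on either strand, the CCAAT box (CCAAT, bound by NF-Y) in 7, and the TATA box (TATAAA) in 0. Those pairs that recur in the results are printed here, because each stretch is all the DNA between the starts of a pair described further on. They read 5′ to 3′ on the strand of the sense gene, capitals mark a GC or CCAAT box on either strand, and boxes that overlap are run together.
Brip1os, chr11:86201194-86201369, minus strand: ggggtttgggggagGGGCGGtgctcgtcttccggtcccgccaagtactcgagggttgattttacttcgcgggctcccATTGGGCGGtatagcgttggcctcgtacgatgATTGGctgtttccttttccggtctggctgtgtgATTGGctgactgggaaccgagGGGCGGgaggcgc
Map2k3os, chr11:60931868-60932032, plus strand: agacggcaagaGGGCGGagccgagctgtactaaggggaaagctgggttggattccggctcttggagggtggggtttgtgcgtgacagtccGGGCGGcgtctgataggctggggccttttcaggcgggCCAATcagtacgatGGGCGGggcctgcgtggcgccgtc
Etaa1os, chr11:17953876-17953969, minus strand: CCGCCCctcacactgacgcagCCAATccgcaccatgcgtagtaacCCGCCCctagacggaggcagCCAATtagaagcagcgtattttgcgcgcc
Emx2os, chr19:59458636-59458689, plus strand: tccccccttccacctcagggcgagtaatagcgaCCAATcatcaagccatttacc
Med9os, chr11:59948143-59948205, plus strand: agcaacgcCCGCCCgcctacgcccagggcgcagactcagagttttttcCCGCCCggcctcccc
B9d1os, chr11:61505060-61505143, plus strand: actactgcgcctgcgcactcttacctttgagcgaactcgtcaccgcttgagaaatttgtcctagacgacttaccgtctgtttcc

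The printed stretch of B9d1os held neither box, that of Emx2os a single CCAAT box, and that of Map2k3os 3 GC boxes. Over the 102 RefSeq start windows of 71 of the genes, the GC box was in 33.3%, the CCAAT box in 32.4% and the TATA box in 6.86%. Over all 32851 windows of the table the shares were 35.7%, 37.4% and 13.6%. A match is a run of letters and not a shown binding site.

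Of the 270 genes in the count table, 107 passed the filter on low counts and 163 did not. No count at all was seen for 21 of the 163, 139 had 1 to 99 counts over the 27 libraries, and 3 had 100 or more. The highest group mean among the 163 was 0.978 CPM, and nothing about their fractions is said here. Among the 107 tested genes the highest group mean was at least 10 CPM for 19, between 1 and 10 CPM for 68 and under 1 CPM for 20. All 270 together made up 0.0444% to 0.0565% of counts in mESC chromatin and 0.00899% to 0.0137% in mESC cytoplasm. In mNPC they made up 0.0741% to 0.0770% in chromatin, 0.0332% to 0.0366% in nucleoplasm and 0.0264% to 0.0288% in cytoplasm. In mCtx the share was 0.0378% to 0.0396% in chromatin and 0.0256% to 0.0270% in cytoplasm, and lowest in nucleoplasm, at 0.0162% to 0.0177%. The chromatin libraries lay above the cytoplasm libraries in each cell type, with no overlap.

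**Figure D1:**
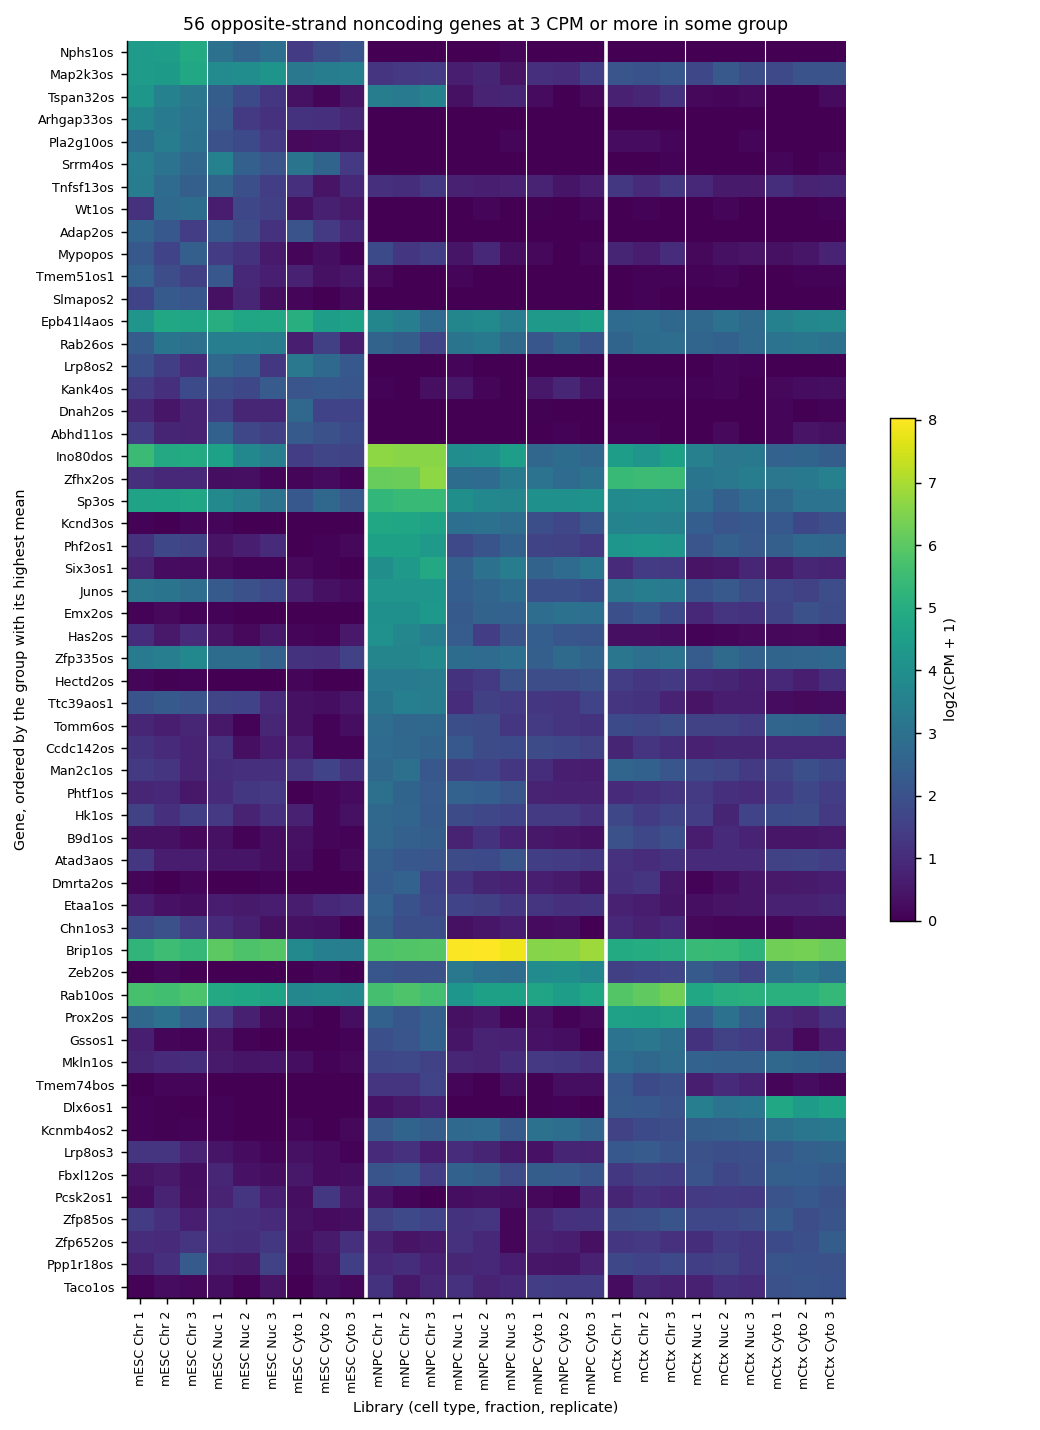
Heat map of log2(CPM + 1) for the 56 opposite-strand genes with at least 3 CPM in some group (rows, ordered by the group with the highest mean) in each of the 27 libraries (columns, by cell type and fraction). The 3 libraries of a group look alike for most genes, the brightest cells are Brip1os in mNPC nucleoplasm, and most other bright cells are in chromatin columns.

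On the per-length scale (TPM, which allows levels of different genes to be set side by side), Epb41l4aos led in mESC, with means of 151 TPM in chromatin, 117 in nucleoplasm and 123 in cytoplasm. Epb41l4aos shares its strand with the small RNA gene Gm23639, so some of its reads may belong to that gene. In mNPC chromatin Zfhx2os was highest, at 97.2 TPM, and in mNPC nucleoplasm Brip1os, at 56.5 TPM. In mCtx chromatin Rab26os led, at 98.7 TPM, but its 497 bp hold the small nucleolar RNA gene Snord60 on the same strand. Of the 107 tested genes 18 overlap a gene on their own strand, and for these the counting could have split reads. Among the 22 genes of the TPM table alone the highest group mean was 48.3 TPM, for Tmem147os.

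Chromatin was first compared with cytoplasm, to ask which of these RNAs stay with chromatin. A gene was called where edgeR's quasi-likelihood test gave a Benjamini-Hochberg adjusted p under 0.05 over all 18226 genes tested and the fold change was at least 2-fold. In mESC 62 of the 107 tested genes were higher in chromatin and 5 lower, beside 34.4% of all genes called higher and 21.6% lower. In mNPC 52 were higher and 7 lower, beside 27.5% and 21.3% of all genes. In mCtx 24 were higher and 14 lower, beside 26.2% and 24.4%. The neurons' shares of called genes, 22.4% and 13.1%, were under the background in each direction. Of the 107 genes, 12 in mESC, 24 in mNPC and 25 in mCtx had 3 or fewer counts in both fractions. Such genes could hardly be called, yet they stay in these shares and in the medians below. The like number over all genes was not counted. The median log2 fold change was 2.16 in mESC, 1.16 in mNPC and 0 in mCtx, against 0.369, 0.116 and 0 over all genes tested. With genes that had no count in 1 fraction placed at their bound, the medians were 1.94, 1.15 and 0. The 1013 tested genes of lncRNA types had 57.7% higher and 3.95% lower in mESC with a median of 2.13, and medians of 1.39 in mNPC and 0.34 in mCtx, close to the values of the opposite-strand genes in mESC and above their medians in the other 2 cell types. Of the calls, 54 in mESC, 51 in mNPC and 32 in mCtx had over 3 counts in both fractions. Without mESC replicate 1 in all fractions, 56 of 111 tested were higher and 5 lower in mESC, beside 33.6% and 21.2% of all genes.

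**Figure D2:**
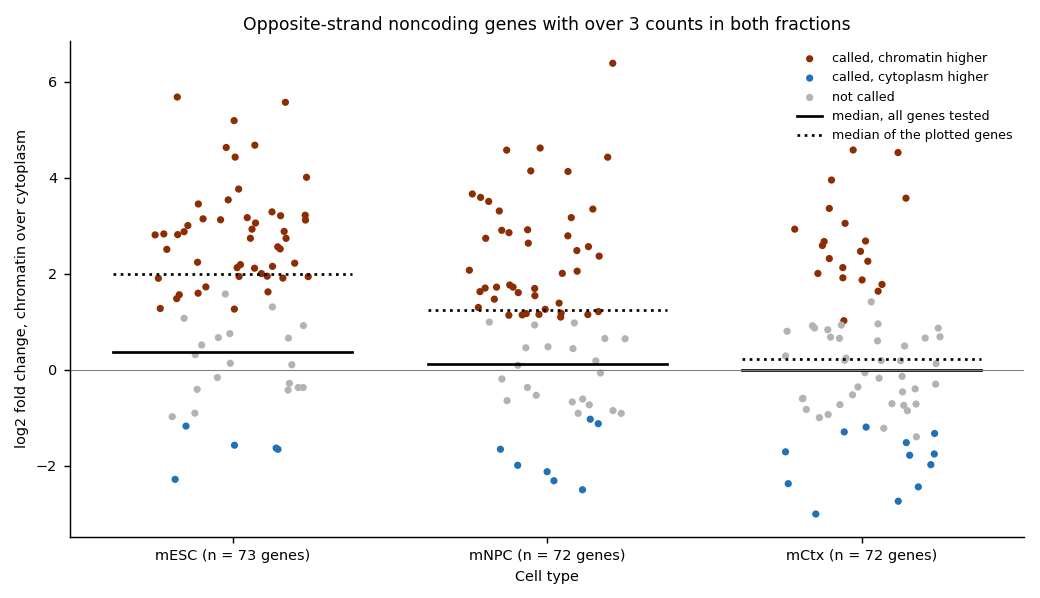
Log2 fold change of chromatin over cytoplasm (vertical axis) for the opposite-strand genes with more than 3 counts in both fractions, 73 in mESC, 72 in mNPC and 72 in mCtx. Each point is a gene, red where chromatin was higher by the call rule, blue where cytoplasm was higher and grey where not called. The dotted line is their median (2.01, 1.24 and 0.222), and the solid line is that of all genes tested (0.369, 0.116 and 0). The solid line has no such minimum of counts, so the 2 lines are not over like sets. Without that minimum the medians of the 107 opposite-strand genes were 2.16, 1.16 and 0.

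Ino80dos (ENSMUSG00000084799, chr1:63114471-63158290, plus strand) starts 196 bases inside Ino80d, which encodes a subunit of the INO80 chromatin remodeller. Its chromatin libraries held 43.2, 27.8 and 28.8 CPM in mESC, 99.7, 97.0 and 96.8 CPM in mNPC and 21.2, 17.4 and 22.5 CPM in mCtx, in the order of replicates 1 to 3. Its cytoplasm libraries held 1.77, 2.20 and 2.15 CPM in mESC, 5.29, 6.17 and 5.22 CPM in mNPC and 4.78, 5.03 and 4.15 CPM in mCtx. Every chromatin library lay above every cytoplasm library, and the mNPC chromatin libraries were highest of all. The log2 fold change of chromatin over cytoplasm was 4.01 ± 0.27 (SE) in mESC, 4.13 ± 0.25 in mNPC and 2.13 ± 0.24 in mCtx, with adjusted p of 6.9e-13, 8.3e-14 and 1.2e-08. Ino80d itself was higher in chromatin by 1.70 ± 0.17 in mESC and 1.54 ± 0.17 in mNPC.

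Tspan32os (ENSMUSG00000052281, chr7:142988969-143008033, minus strand) lies head to head with Tspan32, which encodes a tetraspanin of blood cells. In mESC its chromatin libraries held 18, 10.5 and 8.10 CPM and its cytoplasm libraries 0.295, 0.113 and 0.349 CPM. In mNPC the values were 9.34, 9.24 and 10.6 CPM against 0.172, 0 and 0.149 CPM. Both gaps are wide, and mESC replicate 1 was the highest chromatin library. The log2 fold change was 5.58 ± 0.53 in mESC (adjusted p = 5.1e-10) and 6.39 ± 0.59 in mNPC (adjusted p = 2.7e-10), the second resting on 6 cytoplasmic counts and reading 7.09 without mNPC cytoplasm replicate 1. Per length, Tspan32os exceeded its sense gene, at 14.4 against 2.45 TPM in mESC chromatin and 13.8 against 2.20 TPM in mNPC chromatin.

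Prox2os (ENSMUSG00000093629, chr12:85086374-85088228, plus strand) lies inside Prox2, a prospero homeobox gene. Its chromatin libraries held 5.36, 7.14 and 4.47 CPM in mESC, 4.62, 3.44 and 4.49 CPM in mNPC and 23.2, 22.9 and 25 CPM in mCtx. Its cytoplasm libraries reached at most 0.233, 0.258 and 1.28 CPM in the same cell types. The fractions did not overlap, and mCtx chromatin stood highest. The log2 fold change in mCtx was 4.58 ± 0.41 (adjusted p = 1.8e-10). In mESC the log2 fold change was 5.69 ± 0.58 from 5 cytoplasmic counts, 7.16 without cytoplasm replicate 3 and 5.06 without replicate 2. In mNPC it was 4.62 ± 0.54, and 5.35 without cytoplasm replicate 1.

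Junos (ENSMUSG00000087366, chr4:95051534-95167318, plus strand) starts 688 bases inside Jun, the AP-1 transcription factor gene. Its chromatin libraries held 8.18, 7.5 and 6.40 CPM in mESC, 17.1, 17.2 and 17.6 CPM in mNPC and 8.35, 9.30 and 8.79 CPM in mCtx. The cytoplasm libraries held 0.589, 0.282 and 0.175 CPM in mESC, 2.88, 2.92 and 2.46 CPM in mNPC and 2.25, 2.01 and 2.69 CPM in mCtx. No cytoplasm library reached a chromatin library. Junos was higher in chromatin by 4.43 ± 0.29, 2.64 ± 0.22 and 1.92 ± 0.22 on the log2 scale, while Jun was lower in chromatin by -1.09 ± 0.18, -1.22 ± 0.16 and -1.85 ± 0.16, so this pair went opposite ways in all 3 cell types.

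Rab10os (chr12:3235504-3250377, plus strand), tail to tail with the membrane trafficking GTPase gene Rab10, had mean chromatin levels of 50.1 ± 2.66, 51.4 ± 3.18 and 67.6 ± 10.6 CPM (SD, n = 3) in mESC, mNPC and mCtx. It was higher in chromatin by 2.01 ± 0.14 and 1.10 ± 0.13 in mESC and mNPC, and by 0.93 ± 0.13 in mCtx, short of a call. Rab10 was lower in chromatin by -2.62 ± 0.13 in mNPC and -2.81 ± 0.13 in mCtx. Sp3os (chr2:72979424-72988677, plus strand), head to head with the GC-box binding factor gene Sp3, was higher in chromatin by 2.51 ± 0.19 in mESC and 1.39 ± 0.17 in mNPC, and had 0.96 ± 0.18 in mCtx, again short of a call.

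A smaller group was higher in cytoplasm. Zeb2os (ENSMUSG00000052248, chr2:45111138-45114087, plus strand) lies inside Zeb2, which encodes a zinc finger repressor of neural development. In mNPC its libraries held 3.46, 2.97 and 3.02 CPM in chromatin, 8.25, 6.62 and 6.34 CPM in nucleoplasm and 13.7, 15.0 and 12.4 CPM in cytoplasm. In mCtx they held 1.89, 2.09 and 2.31 CPM, 3.85, 2.98 and 2.19 CPM and 6.76, 8.05 and 6.43 CPM in the same order. The cytoplasm libraries stood above all others of the cell type, and the chromatin and nucleoplasm libraries overlapped in mCtx alone. The log2 fold change of chromatin over cytoplasm was -2.12 ± 0.27 in mNPC (adjusted p = 2e-07) and -1.75 ± 0.28 in mCtx (adjusted p = 5e-06), whereas Zeb2 had -0.42 ± 0.22 and 0.10 ± 0.21, neither called.

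Dlx6os1 (ENSMUSG00000090063, chr6:6820189-6869533, minus strand) contains Dlx6, a homeobox gene of forebrain inhibitory neurons, and overlaps Dlx6os2 on its own strand. In mCtx its libraries held 3.89, 3.63 and 3.12 CPM in chromatin, 9.75, 7.39 and 7.98 CPM in nucleoplasm and 26.8, 20.0 and 24.1 CPM in cytoplasm. The 3 fractions did not overlap, and the order from chromatin to cytoplasm was rising. The log2 fold change of chromatin over cytoplasm was -2.73 ± 0.26 (adjusted p = 2.3e-09), and Dlx6 had -0.90 ± 0.40, not called. Inhibitory neuron markers, on the same CPM scale, summed to 153 to 162 in mCtx chromatin and 502 to 540 in mCtx cytoplasm, and their part in the level of Dlx6os1 was not tested.

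Med9os (chr11:59946889-59948142, minus strand), back to back with the Mediator subunit gene Med9, was lower in chromatin by -2.31 ± 0.55 in mNPC and -3.0 ± 0.59 in mCtx, from chromatin libraries of at most 0.552 CPM. Its sense gene was lower too, by -2.87 in mNPC and -2.41 in mCtx. Taco1os (chr11:106065077-106066305, minus strand), whose sense gene activates translation of a cytochrome oxidase subunit, held 0.205, 0.817 and 0.673 CPM in mCtx chromatin and 3.00, 3.22 and 3.06 CPM in mCtx cytoplasm. Its log2 fold change was -2.44 ± 0.44 in mCtx (adjusted p = 2.3e-05). In mNPC Taco1os had -1.03 ± 0.44, which was not called without any one of 5 of the 6 libraries, with values from -1.05 to -0.69, nor with library totals, at -0.71.

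In mESC the 5 genes that were lower in chromatin were Dnah2os at -2.28 ± 0.49, Dgkeos at -1.65, Lrp8os2 at -1.63 ± 0.47, Abhd11os at -1.57 ± 0.46 and Etaa1os at -1.17 ± 0.38. Dgkeos, named after its values were seen, had overlapping libraries, as had Etaa1os. Dnah2os, opposite an axonemal dynein gene, held 0.828, 0.408 and 0.716 CPM in chromatin and 5.45, 2.03 and 2.10 CPM in cytoplasm, where replicate 1 was far above the others, and its value was -1.65 without that library. With library totals Lrp8os2 and Abhd11os had -1.11 and -1.05 and were not called. On the log2(TPM + 1) scale Dnah2os and Lrp8os2 were not called, at -0.77 and -0.47, and Abhd11os was at 0.71. In mNPC the other 4 of 7 were Kank4os at -2.50, Sox6os at -1.99, Rspo4os at -1.65 and Epb41l4aos at -1.12 ± 0.21, and the first 3 of these were named after their values were seen. Epb41l4aos was not called without mNPC chromatin replicate 3, at -0.89, nor with library totals, at -0.81.

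In mCtx, 14 genes were lower in chromatin, and 12 of them had over 3 counts in both fractions. Besides those above, Pcsk2os1 had -1.78 ± 0.52, Kcnmb4os2, opposite the auxiliary BK channel subunit gene Kcnmb4, -1.71 ± 0.25, Appbp2os -1.51 ± 0.42 and Brip1os -1.32 ± 0.12. H3f3aos and Zmiz1os1 had -1.97 ± 0.40 and -2.37 ± 0.50 in counts and 0.22 and 1.39 on the log2(TPM + 1) scale, so their direction in mCtx depends on the quantification. Kcnmb4os2 had -0.76 on that scale, which was not called. That scale shrinks the folds of low genes, so it is read here for direction and calls. On it limma called 59 of 253 opposite-strand genes higher and 8 lower in mCtx chromatin, beside 25.9% and 5.92% of all 34259 genes on that scale, against 24 and 14 of 107 from counts.

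The arrangement of the pair was set beside these calls as a description. Of 22 tested back-to-back genes, 16 were higher in mESC chromatin and 1 lower, against 11 and 1 in mNPC and 5 and 4 in mCtx. Of 40 with overlapping starts, 22 were higher and 1 lower in mESC, 22 and 1 in mNPC and 10 and 6 in mCtx. Of 27 inside the sense gene, 13 were higher and 2 lower in mESC, 10 and 4 in mNPC and 5 and 1 in mCtx. The mESC counts for the 3 arrangements without mESC replicate 1 were 11 and 1, 21 of 39 and 1, and 12 and 2, beside 33.6% and 21.2% of all genes. Over all genes the shares higher and lower were 34.4% and 21.6% in mESC, 27.5% and 21.3% in mNPC, and 26.2% and 24.4% in mCtx. Every one of these 3 arrangements had fewer genes called higher in mCtx than in mESC, as had all genes. Of 7 with overlapping ends, 4 were higher and 1 lower in mESC, 5 and 0 in mNPC and 3 and 1 in mCtx. The remaining arrangements had 5 or fewer tested genes each.

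Nucleoplasm was compared with cytoplasm in the same way. In mESC 45 of 107 genes were higher in nucleoplasm and 1, Dnah2os, was lower, beside 27.5% and 8.95% of all genes. With limma on log2(TPM + 1) the counts in mESC were 14 of 253 higher and 0 lower, beside 10.9% and 2.82% on that scale, and with the compared libraries alone, where 45 were tested, 22 and 0, beside 26.9% and 5.48%. Without mESC replicate 1 in all fractions 29 of 111 were higher and 1 lower, beside 24.1% and 10.1%, so the count in mESC nucleoplasm depends on the setting and on the genes tested. Dnah2os was not called without mESC nucleoplasm replicate 2 (-1.26) or cytoplasm replicate 1 (-0.87). In mNPC 11 were higher and 1 lower, beside 16.4% and 8.56%, and 7 and 6 with scaling by library totals alone, beside 13% and 17.8% of all genes, where the median over all genes was -0.31 in place of -0.04. In mCtx 5 were higher and 12 lower, beside 11.7% and 9.57%. Of the 1013 other tested genes of lncRNA types, 39.7% were higher and 1.28% lower in mESC nucleoplasm. Their shares were 13.9% and 2.27% in mNPC, and 7.90% and 9.48% in mCtx.

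Brip1os (ENSMUSG00000085208, chr11:86201370-86304443, plus strand) had the highest nucleoplasm TPM of the tested genes in mNPC, at 56.5. By TPM it ranked 5 in mESC nucleoplasm, at 15.4, and 5 in mCtx nucleoplasm, at 10.0. It starts 177 bases from Brip1, which encodes a helicase that repairs DNA crosslinks together with BRCA1, and it runs past Ints2 and Med13 on the opposite strand. In mESC its libraries held 37.2, 45.8 and 39.5 CPM in chromatin, 63.2, 54.9 and 57.9 CPM in nucleoplasm and 12.8, 10.1 and 9.78 CPM in cytoplasm. In mNPC they held 54.2, 57.4 and 57.8 CPM, 250, 261 and 229 CPM, and 93.4, 95.3 and 116 CPM. In mCtx they held 28.8, 30.5 and 32.4 CPM, 42.4, 41.0 and 35.3 CPM, and 77.2, 80.0 and 72.5 CPM. The 3 fractions did not overlap in any cell type, but their order changed: nucleoplasm was highest in mESC and mNPC and cytoplasm in mCtx, while cytoplasm was lowest in mESC and chromatin in the other 2.

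Nucleoplasm over cytoplasm was 2.43 ± 0.13 for Brip1os in mESC and 1.28 ± 0.12 in mNPC, both called, the second 0.91 and not called on the log2(TPM + 1) scale, and -0.95 ± 0.12 in mCtx, short of a call. Chromatin over cytoplasm was 1.91 ± 0.13 in mESC (adjusted p = 9.5e-13), -0.85 ± 0.12 in mNPC, short of a call, and -1.32 ± 0.12 in mCtx (adjusted p = 3.6e-10). Its sense gene went the other way in mCtx, at 1.48 ± 0.24. Rab26os, opposite a vesicle GTPase gene, was higher in mESC nucleoplasm by 3.21 ± 0.34, and 3.94 without mESC cytoplasm replicate 2. Ino80dos had 2.88 ± 0.27 in mESC nucleoplasm, and 2.29 without mESC replicate 1 in all fractions.

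The member and its sense gene were then read side by side, in 100 pairs where both were tested. In mESC both were called between chromatin and cytoplasm for 25 pairs, 14 the same way and 11 opposite ways, and in 36 pairs the antisense gene alone was called. Without mESC replicate 1, 98 of these pairs were tested, and 13 went the same way, 9 opposite ways and 34 with the antisense gene alone. In mNPC 15 pairs went the same way, 9 opposite ways and 31 with the antisense gene alone. In mCtx 7 went the same way, 5 opposite ways and 23 with the antisense gene alone. The sense genes' median log2 fold change was 0.37, 0.25 and 0.10 in the 3 cell types, against 2.16, 1.14 and 0 for their antisense genes. In 21 of these 25 opposite instances the antisense RNA was the one higher in chromatin, and the 4 exceptions were Dgkeos, Dnah2os and Lrp8os2 in mESC and Brip1os in mCtx. Taken alone, the 107 antisense genes had 62 higher and 5 lower, 52 and 7, and 24 and 14 in the 3 cell types. The 100 sense genes had 29 and 12, 27 and 15, and 22 and 15. These calls by themselves lean the split that way. No expected split was computed, so it is not a result about pairs.

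**Figure D3:**
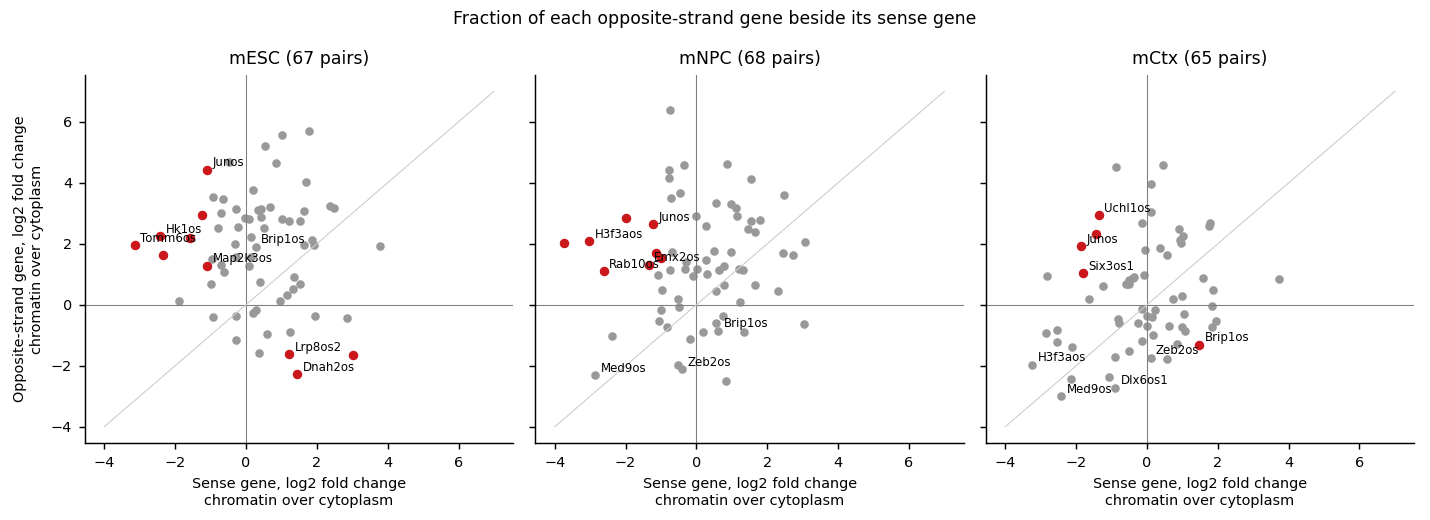
Log2 fold change of chromatin over cytoplasm for the sense gene (horizontal axis) and the opposite-strand gene (vertical axis), for 67 pairs in mESC, 68 in mNPC and 65 in mCtx with more than 3 counts for each gene in both fractions. Red points are pairs called in opposite directions (10, 8 and 5), and most of them lie to the upper left, with the antisense RNA in chromatin and the sense RNA in cytoplasm.

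H3f3aos, which shares 168 bases with the start of the histone H3.3 gene H3f3a, was higher in chromatin by 1.63 ± 0.49 in mESC and 2.08 ± 0.40 in mNPC, while H3f3a was lower by -2.34 ± 0.14 and -3.02 ± 0.14. Emx2os (ENSMUSG00000087095, chr19:59425104-59458635, minus strand) starts 55 bases from Emx2, a homeobox gene of the dorsal telencephalon, across the 54 bases printed above. In mNPC it held 15.4, 15.4 and 18.6 CPM in chromatin and 6.33, 7.05 and 6.63 CPM in cytoplasm, without overlap. It was higher in chromatin by 1.30 ± 0.23 where Emx2 was lower by -1.35 ± 0.23, and in mCtx Emx2os had 0.20 ± 0.25, not called, beside -1.64 ± 0.23 for Emx2.

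Uchl1os (chr5:66626495-66676497, minus strand) is opposite Uchl1, an abundant deubiquitinase gene of neurons. In mCtx it held 2.61, 3.17 and 2.79 CPM in chromatin and 0.273, 0.352 and 0.456 CPM in cytoplasm, so each chromatin library was above each cytoplasm library. Its log2 fold change was 2.93 ± 0.47, against -1.37 ± 0.15 for Uchl1. Six3os1 (ENSMUSG00000093460, chr17:85600203-85619411, minus strand) and Six3, a homeobox gene of forebrain and eye, had 1.03 ± 0.44 and -1.80 ± 0.72 in mCtx, from chromatin libraries of 0.922, 1.69 and 1.59 CPM for Six3os1. Chn1os3, opposite the Rac GAP gene Chn1, had 2.32 ± 0.59 against -1.43 ± 0.15. Hk1os and Tomm6os, opposite a hexokinase and a mitochondrial import gene, were higher in chromatin in mESC and mNPC, by 2.24 ± 0.45 and 1.71 ± 0.35 for Hk1os and by 1.95 ± 0.53 and 2.01 ± 0.35 for Tomm6os, and their sense genes were lower. Hk1os was named after its values were seen, and Tomm6os overlaps Frs3 on its own strand.

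In Lrp8os2 (chr4:107806033-107810948, minus strand), opposite the reelin receptor gene Lrp8, the arrangement was reversed. Its mESC libraries held 2.87, 1.83 and 0.984 CPM in chromatin and 8.32, 5.70 and 3.61 CPM in cytoplasm, with no overlap. Lrp8os2 had the -1.63 given above, and Lrp8 was higher in chromatin by 1.21 ± 0.15.

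The cell types were compared within chromatin, to ask where each antisense RNA was present. From mESC to mNPC 46 of 107 genes were higher and 36 lower, beside 25.3% and 31.9% of all genes, and 48 and 38 of 111 without mESC replicate 1, beside 24.1% and 34.4%. From mNPC to mCtx 14 were higher and 34 lower, beside 23.5% and 21.4%. Over all 3, the highest chromatin mean was in mNPC for 47 genes, in mESC for 41 and in mCtx for 19. The direct comparison of mCtx with mESC gave 35 higher and 44 lower, beside 29.3% and 32.3%, and 35 and 42 of 111 without mESC replicate 1, beside 28.6% and 33.2%. A gene that passed the filter through 1 cell type had to differ there, so these counts are a description, and with over 3 counts in both groups 35 and 11 of the first comparison and 13 and 27 of the second remained. Of the 1013 other tested genes of lncRNA types, 38.4% were higher and 32.2% lower in chromatin from mESC to mNPC. Their shares were 22.1% and 33.1% from mNPC to mCtx, and 36.0% and 36.4% from mESC to mCtx.

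Zfhx2os (ENSMUSG00000093452, chr14:55056178-55072397, plus strand) meets Zfhx2, a zinc finger homeobox gene, tail to tail over 12136 bases. In chromatin it held 1.12, 0.856 and 0.894 CPM in mESC, 70.3, 74.2 and 101 CPM in mNPC and 42.7, 44.4 and 43.2 CPM in mCtx. The 3 cell types did not overlap. The log2 fold change from mESC to mNPC was 6.41 ± 0.22 (adjusted p = 2.9e-19) and from mNPC to mCtx -0.91 ± 0.16, short of a call, while Zfhx2 rose by 1.21 ± 0.16 from mESC to mNPC. Zfhx2os was higher in chromatin than in cytoplasm in both neural cell types, by 3.59 ± 0.18 in mNPC and 2.26 ± 0.17 in mCtx.

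Other genes were high in progenitors. Six3os1 held 0.731, 0.204 and 0.179 CPM in mESC chromatin, 14.5, 19.6 and 27.8 CPM in mNPC chromatin and 0.922, 1.69 and 1.59 CPM in mCtx chromatin. It rose by 5.81 ± 0.45 and then fell, at -3.87 ± 0.38, and Six3 moved with it, at 5.88 ± 0.61 and -5.20 ± 0.57. Emx2os had 6 counts in mESC chromatin and rose by 7.43 ± 0.37 in mNPC (8.26 without mESC chromatin replicate 2), beside 7.27 ± 0.42 for Emx2. In mCtx chromatin it was at 2.87, 3.58 and 2.5 CPM, lower than in mNPC by -2.46 ± 0.24, whereas Emx2 had -0.69 ± 0.23, not called. Has2os (chr15:56689944-56778399, plus strand), opposite the hyaluronan synthase gene Has2, held 15.6, 12.3 and 9.85 CPM in mNPC chromatin and changed by 3.94 ± 0.37 and -5.71 ± 0.44 over the 2 steps.

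Kcnd3os (ENSMUSG00000074346, chr3:105441595-105452955, minus strand), head to head with the A-type potassium channel gene Kcnd3, had 3 counts over the mESC chromatin libraries. In mNPC chromatin it held 27, 25.7 and 23.5 CPM, which is 574-fold more, with a 95% counting interval of 196 to 2789, and in mCtx 11, 10.9 and 10.4 CPM. Kcnd3 rose from 0.302 to 195 CPM in the same step. Zeb2os had 2 counts in mESC chromatin, and its ratio of mNPC to mESC was 106, interval 29.0 to 886. Prox1os, head to head with the prospero homeobox gene Prox1, had 1 count in mESC chromatin against 2.91, 2.64 and 2.75 CPM in mNPC, a ratio of 186 with an interval of 33.0 to 7410. It was lower in mCtx by -4.31 ± 0.59 (-5.04 without mCtx chromatin replicate 3), and Prox1 by -5.60 ± 0.24. Intervals of this kind cover counting error only.

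Among the other tested genes whose sense gene is a developmental transcription factor, Nkx2-2os changed by 4.16 ± 0.57 and -2.40 ± 0.48 over the 2 steps and Nkx2-2, a homeobox gene of the oligodendrocyte lineage, by 4.29 ± 0.48 and -1.97 ± 0.39. Oligodendrocyte lineage markers summed to 619 to 640 CPM in mNPC chromatin, and their part in this was not tested. Pax6os1, head to head with the eye and forebrain regulator gene Pax6, rose by 3.18 ± 0.43 into mNPC and had 0.46 ± 0.33 from mNPC to mCtx, not called, where Pax6 fell, at -1.55 ± 0.23. Foxd2os fell from mESC to mNPC, at -2.30 ± 0.55, and Vax2os had -1.85 ± 0.79 in the same step, from 7 counts in mNPC.

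A group of genes was found in mESC and nearly nowhere else. Nphs1os (ENSMUSG00000087009, chr7:30462164-30465591, minus strand) lies inside Nphs1, the nephrin gene of the kidney filter. Its mESC libraries held 20.2, 21.1 and 29.2 CPM in chromatin, 6.98, 5.19 and 6.61 CPM in nucleoplasm and 1.69, 2.71 and 3.32 CPM in cytoplasm, with no overlap between fractions. In mNPC chromatin and in all mCtx fractions it had 0 counts, so it was at least 439-fold lower in mNPC chromatin, taking 3 counts over the group as the floor. Nphs1 went from 450 to 0.0324 CPM. Within mESC Nphs1os was higher in chromatin by 3.17 ± 0.31, and Nphs1 by 2.48 ± 0.19.

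Pla2g10os, head to head with a secreted phospholipase gene, held 6.62, 9.58 and 7.11 CPM in mESC chromatin and was at least 147-fold lower in mNPC chromatin. Wt1os, which starts 19 bases from the kidney and gonad regulator gene Wt1, held 1.22, 5.75 and 6.22 CPM and was at least 84.5-fold lower, replicate 1 being the lowest. Tbx3os1 held 1.27, 0.979 and 0.894 CPM in mESC chromatin and was at least 19.4-fold lower in mNPC, where the TPM table nevertheless listed it at 3.43. Dlx4os, at 1.46, 0.449 and 0.268 CPM, was at least 13.0-fold lower. Mecomos, inside Mecom, had 1 count in mNPC chromatin and a ratio of 76.5, with an interval of 13.4 to 3054. The sense genes of these 5 were lower in mNPC chromatin as well.

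Map2k3os (ENSMUSG00000042549, chr11:60920917-60931867, minus strand) starts 166 bases from Map2k3, a kinase gene of the p38 pathway, and kept a residual level. Its chromatin libraries held 20.1, 19.9 and 27.4 CPM in mESC, 1.36, 1.51 and 1.61 CPM in mNPC and 3.38, 3.06 and 3.56 CPM in mCtx, without overlap. It fell by 3.91 ± 0.23 on the log2 scale (adjusted p = 3.2e-14) from mESC to mNPC and was higher in mCtx by 1.16 ± 0.23. Map2k3 had -0.82 ± 0.17 and 0.40 ± 0.17, neither called.

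**Figure D4:**
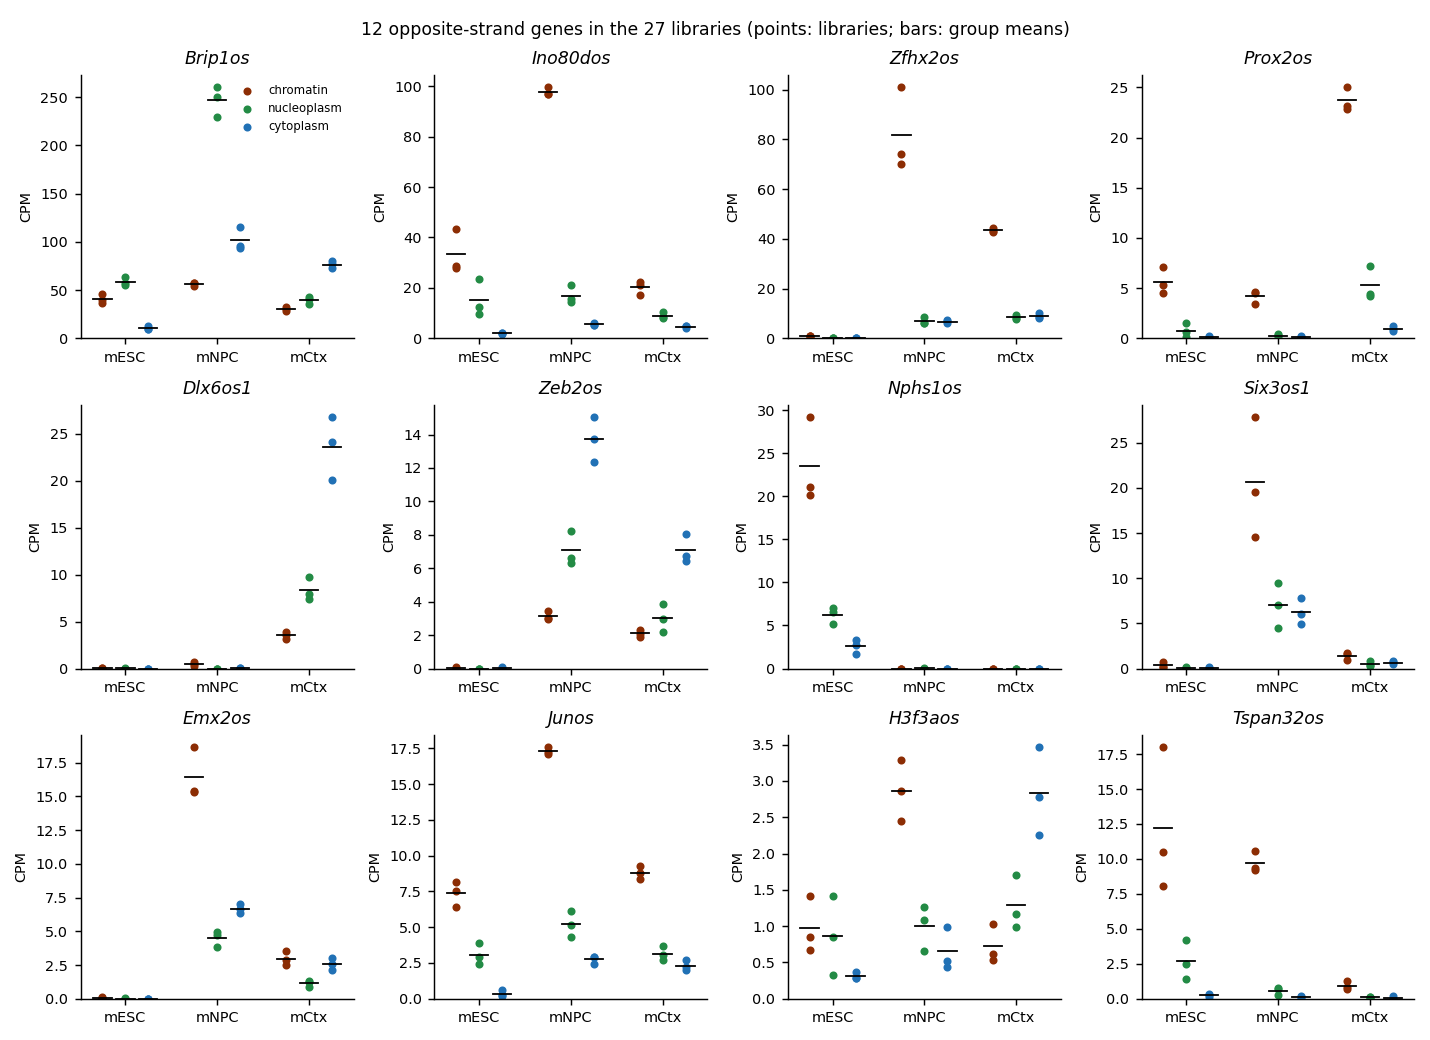
CPM of 12 opposite-strand genes, a panel each, in the 9 groups (horizontal axis) with the 3 libraries as points and their mean as a bar. Brip1os peaks in mNPC nucleoplasm, Dlx6os1 in mCtx cytoplasm, Zeb2os in mNPC cytoplasm, and Zfhx2os, Prox2os, Nphs1os and Junos in chromatin of at least 1 cell type.

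Fewer genes were highest in neurons. Prox2os was higher in mCtx than in mNPC chromatin by 2.50 ± 0.36 (adjusted p = 7.3e-07), 23.7 ± 1.16 against 4.18 ± 0.647 CPM (SD, n = 3), with the libraries apart. Dlx6os1 held 0.301, 0.471 and 0.670 CPM in mNPC chromatin and was higher in mCtx by 2.90 ± 0.32, a value of 0.76 and no call on the log2(TPM + 1) scale. In cytoplasm Dlx6os1 had 2 counts in mNPC and was 640-fold higher in mCtx, with an interval of 177 to 5293. Inhibitory neuron markers summed to at most 5.21 CPM in mNPC cytoplasm and to at least 502 CPM in mCtx cytoplasm. Uchl1os, with 7 counts in mNPC chromatin, was higher in mCtx by 4.46 ± 0.56, and Uchl1 by 4.90 ± 0.18.

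In cytoplasm 47 genes were higher and 27 lower in mNPC than in mESC, beside 29.8% and 29.6% of all genes, and 49 and 25 of 111 without mESC replicate 1, beside 29.5% and 29.8%. On log2(TPM + 1) 34 and 11 of 253 were called, beside 13.6% and 11.6%, and with the compared libraries alone 36 and 13 of 55, beside 30.8% and 31.1%. From mNPC to mCtx 27 were higher and 18 lower, beside 24.4% and 20%, but limma on log2(TPM + 1) called 11 and 12 of 253, beside 9.72% and 8.85% on that scale. From mESC to mCtx the counts were 51 and 26, beside 35.7% and 32.2%, and 55 and 22 without mESC replicate 1, beside 35.6% and 32.2%. On log2(TPM + 1) they were 34 and 12 of 253, beside 16.6% and 14.1%, and with the compared libraries alone 37 and 13 of 57, beside 37% and 33.5%. In the 3 cytoplasm comparisons 60, 38 and 56 of the 107 genes had 3 or fewer counts in a compared group. A gene that passed the filter through another group had to differ there, so these counts too are a description. With over 3 counts in both groups 23 and 5, 21 and 14, and 29 and 7 remained. Of the 1013 other tested genes of lncRNA types, 40.4% were higher and 22.3% lower in cytoplasm from mESC to mNPC. Their shares were 32.4% and 13.6% from mNPC to mCtx, and 51.7% and 20.2% from mESC to mCtx. Brip1os rose in cytoplasm from 10.9 ± 1.67 CPM in mESC to 102 ± 12.5 CPM in mNPC (SD, n = 3), by 3.22 ± 0.13 (adjusted p = 1.8e-17), while Brip1 fell from 37.1 to 9.52 CPM, at -1.96 ± 0.21. From mESC to mCtx Brip1os had 2.82 ± 0.13 and Brip1 -3.98 ± 0.24. In chromatin the same RNA had 0.47 ± 0.12 and -0.42 ± 0.12 in these steps, and it was called in neither. Per length Brip1os stood at 56.5 TPM and Brip1 at 1.55 TPM in mNPC nucleoplasm.

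Among pairs with both genes called, more moved together than apart between cell types. In chromatin 47 of 100 pairs were called the same way and 8 opposite ways from mESC to mNPC, 21 and 6 from mNPC to mCtx, and 42 and 11 from mESC to mCtx. The first was 43 and 10 of 98 pairs and the last 38 and 14 without mESC replicate 1. Both genes had their highest chromatin mean in the same cell type in 57 of 100 pairs, and in 61 by TPM. By arrangement this held for 28 of 40 pairs with overlapping starts, 11 of 19 back to back, 12 of 26 inside the sense gene and 1 of 7 with overlapping ends. It also held for 3 of 5 pairs tail to tail without overlap and 2 of 3 where the antisense gene contained the sense gene. Taken alone, the sense genes had 39 higher and 29 lower, 25 and 27, and 36 and 31 of 100. The shares over all genes were 25.3% and 31.9%, 23.5% and 21.4%, and 29.3% and 32.3%. No share was computed for unrelated genes put in pairs, so the pair counts are a description.

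**Figure D5:**
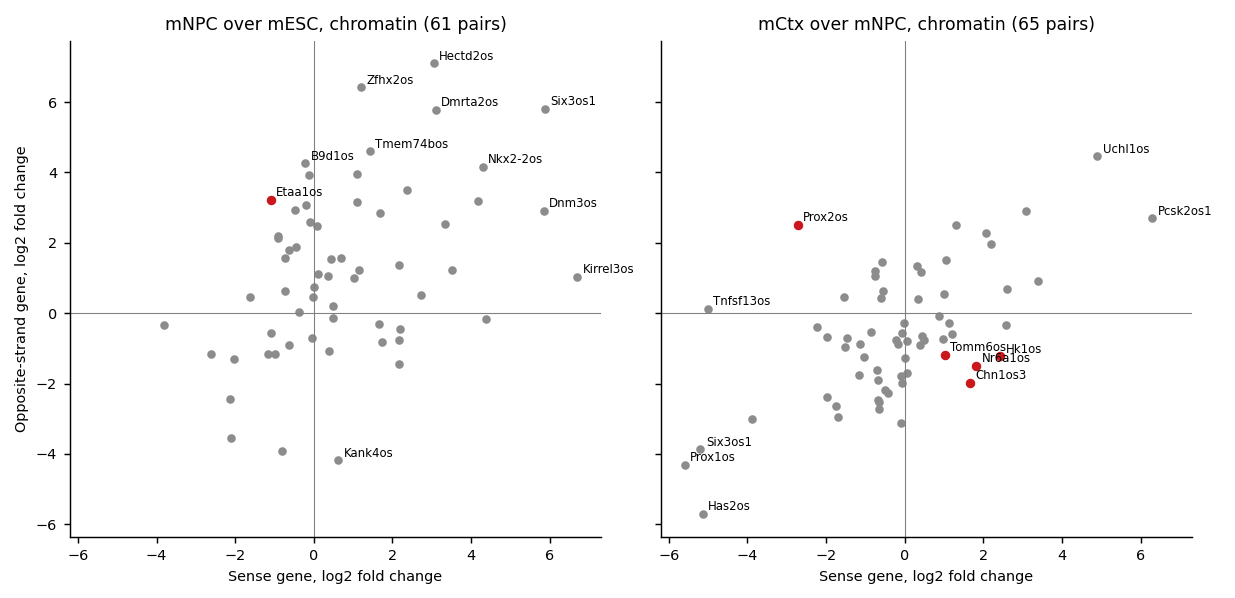
Log2 fold change in chromatin between cell types for the sense gene (horizontal axis) and the opposite-strand gene (vertical axis), for 61 pairs from mESC to mNPC and 65 pairs from mNPC to mCtx with more than 3 counts for each gene in both groups. Most called pairs lie along the rising diagonal, and the opposite pairs are Etaa1os in the first panel and Prox2os, Tomm6os, Hk1os, Nr6a1os and Chn1os3 in the second.

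Some pairs went apart between cell types. Etaa1os (ENSMUSG00000086468, chr11:17953970-17959578, plus strand) starts 95 bases from Etaa1, which encodes an activator of the ATR checkpoint kinase, across 94 printed bases that hold 2 GC boxes and 2 CCAAT boxes. Its chromatin libraries held 0.536, 0.326 and 0.224 CPM in mESC, 4.77, 3.11 and 2.28 CPM in mNPC and 0.666, 0.562 and 0.384 CPM in mCtx. Each mNPC library was above all others. It rose by 3.22 ± 0.35 from mESC to mNPC (adjusted p = 4.4e-09) while Etaa1 fell, at -1.09 ± 0.17, and it was lower again in mCtx by -2.65 ± 0.33.

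Prox2os and Prox2 crossed from mNPC to mCtx: the antisense gene rose by the 2.50 given above and Prox2 fell from 7.78 to 1.17 CPM, at -2.72 ± 0.39. Prox2 lies around Prox2os on the other strand, and the TPM table gave 9.47 for Prox2os and 6.51 for Prox2 in mNPC chromatin and 35.9 and 12.6 in mCtx chromatin, so by TPM the level of Prox2 was higher in mCtx, against its counts. In the same step Hk1os had -1.23 ± 0.34 and Hk1 2.43 ± 0.15, Tomm6os -1.19 ± 0.33 and Tomm6 1.02 ± 0.23, and Chn1os3 -1.98 ± 0.43 and Chn1 1.66 ± 0.15. Nr6a1os, opposite the orphan nuclear receptor gene Nr6a1, had 0 counts in mESC chromatin and 2.06, 2.03 and 2.01 CPM in mNPC, at least 45.7-fold more, where Nr6a1 fell, at -2.99 ± 0.15.

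Arhgap33os (chr7:30515122-30522193, plus strand) and Srrm4os (chr5:116438720-116465487, plus strand) were mESC genes opposite neuronal ones. Arhgap33os held 11.8, 8.85 and 7.29 CPM in mESC chromatin and 0 counts in mNPC chromatin, at least 173-fold lower, while Arhgap33 rose from 13.5 to 105 CPM and to 335 CPM in mCtx. Srrm4os held 9.74, 7.26 and 5.23 CPM in mESC chromatin and was at least 137-fold lower in mNPC. Srrm4, the neural microexon splicing regulator, was at 2.21 CPM in mESC, 1.72 CPM in mNPC and 306 CPM in mCtx chromatin. Srrm4os had 1 count in mCtx chromatin but 5.53 TPM in the TPM table, so the 2 quantifications differ there.

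That difference was wider than this gene. Of the tested genes with 3 or fewer counts over a group, 6 of 25 in mNPC chromatin, 7 of 31 in mCtx chromatin and 3 of 38 in mCtx nucleoplasm were at 1 TPM or more, and none was in the other 6 groups. Strand was checked on the counts: of 1135 genes inside a gene of the opposite strand, 187 (16.5%) had more counts than the outer gene, against 0 of 1334 inside a gene of the same strand. For the opposite-strand genes the number was 3 of 65, with at least 10 counts each. The library kit marks strand, and the counting's strand setting is not given in the sources used here.

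Last, the chromatin-to-cytoplasm fold itself was compared between cell types, as an interaction term. The mitochondrial share of a fraction differed between cell types, and the part of fraction make-up in these shifts was not tested. From mESC to mNPC it shifted toward chromatin for 3 genes and toward cytoplasm for 12, beside 10.3% and 17.7% of all genes. From mNPC to mCtx 2 and 24 shifted, beside 7.68% and 11.4%, and from mESC to mCtx 3 and 39, beside 15.7% and 24.9%. Without mESC replicate 1 the first and the last were 2 and 16, and 2 and 36 of 111, beside 8.46% and 20.4%, and 14.9% and 25.5%. The median shift was -0.68, -0.95 and -1.88, against -0.19, -0.04 and -0.30 over all genes and -0.65, -1.07 and -1.73 over genes of lncRNA types. On the log2(TPM + 1) scale the splits were 25 and 28, 14 and 41, and 20 and 49 of 253 genes, beside 9.54% and 11.5%, 6.28% and 9.52%, and 11.4% and 16.2% of all genes on that scale.

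The shift toward cytoplasm from mNPC to mCtx included H3f3aos, whose libraries went from 2.86, 2.45 and 3.28 CPM in chromatin and 0.990, 0.441 and 0.522 CPM in cytoplasm of mNPC to 1.02, 0.613 and 0.528 CPM and 2.25, 3.47 and 2.78 CPM in mCtx. In counts the higher fraction changed from chromatin to cytoplasm without overlap, a shift of -4.05 ± 0.57. On the log2(TPM + 1) scale the shift was -2.11 and not called, and chromatin was not the lower fraction in mCtx, as given above. Ino80dos shifted by -2.0 ± 0.33 and Zfhx2os by -1.33 ± 0.23 in the same step, and both remained higher in chromatin. Brip1os shifted by -2.76 ± 0.18 from mESC to mNPC, with 0.34 ± 0.28 for Brip1.

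The opposite direction was rare by counts, but less so on the log2(TPM + 1) scale, as its splits above show. Man2c1os shifted by 3.16 from mESC to mNPC in counts, and its sign was reversed on that scale. B9d1os (chr11:61504386-61505059, minus strand), 85 bases from the ciliary transition zone gene B9d1, held 5.22, 4.52 and 4.22 CPM in mNPC chromatin and 0.43, 0.33 and 0.298 CPM in mNPC cytoplasm. It was higher in chromatin by 3.67 ± 0.37 in mNPC and 2.69 ± 0.36 in mCtx, and rose by 4.26 ± 0.38 in chromatin from mESC to mNPC. Its shift of 2.99 ± 0.75 from mESC to mNPC was 2.12 and not called without mESC cytoplasm replicate 1. Etaa1os shifted by 2.64 ± 0.49 in the same step, from -1.17 ± 0.38 in mESC to 1.47 ± 0.31 in mNPC, and was at 0.78 with no call on the log2(TPM + 1) scale.

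Genes of the nuclear exosome and its adaptors, which degrade promoter-antisense RNAs, were set beside these shifts from a fixed list of 21 tested genes. In cytoplasm 13 of the 21 were lower and 0 higher in mNPC than in mESC, and 15 lower and 0 higher in mCtx than in mESC, beside the 29.6% and 32.2% of all genes that were lower. In chromatin 6 were lower and 2 higher in mNPC than in mESC, with a median log2 fold change of -0.03, beside 31.9% and 25.3% of all genes. From mESC to mCtx 4 were lower and 2 higher in chromatin, with a median of -0.31, beside 32.3% and 29.3%. Their summed level in mESC ran from 1870 to 3039 CPM over the 3 cytoplasm libraries and from 1898 to 3019 CPM over those of chromatin. Without mESC replicate 1, 16 and 17 were lower in cytoplasm, beside 29.8% and 32.2% of all genes, and 7 and 7 in chromatin, beside 34.4% and 33.2%. Their chromatin-to-cytoplasm fold shifted toward chromatin for 11, 0 and 14 of the 21 in the 3 comparisons, beside 10.3%, 7.68% and 15.7% of all genes. It shifted toward cytoplasm for 0, beside 17.7%, 11.4% and 24.9%. Without mESC replicate 1 the first and the last were again 11 and 14, beside 8.46% and 14.9%. The part of these genes in the antisense RNAs was not tested. A second fixed list was drawn up for antisense lncRNAs with other names, but it was mixed and also held Mir17hg and Wrap53. Among its 8 tested genes, 6 were higher in chromatin and 0 lower in mESC, 5 and 1 in mNPC, and 3 and 0 in mCtx. The shares over all genes were 34.4% and 21.6%, 27.5% and 21.3%, and 26.2% and 24.4%. Their medians were 3.39, 2.50 and 0.62, and the mESC count without replicate 1 was 6 and 0, beside 33.6% and 21.2%.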

How the data were processed

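RNA of each fraction was extracted with Trizol, selected with oligo-dT, cleaned on RNeasy columns and made into Illumina TruSeq stranded libraries, per the labels' protocols. STAR, featureCounts, kallisto 0.43.0 and mm10 are named in the submitters' processing notes, without saying which tool made which table. The authors deposited whole-number counts per gene and, in a second table, TPM values, which keep no depth. The members and gene lists were chosen with earlier results of these data known.

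Counts were fitted with edgeR 4.0.16 in R 4.3.3 (TMM, filterByExpr over 9 groups, quasi-likelihood test), with all 27 libraries in one fit and 15 contrasts. Calls needed an adjusted p under 0.05 over 18226 genes and a 2-fold change, and standard errors are the log2 fold change over the root of F. Folds against 3 or fewer counts over a group are bounds or ratios with exact 95% intervals, which cover counting error only. The deposited TPM values were tested as log2(TPM + 1) with limma 3.58.1, after a minimum of 0.1 TPM in 3 libraries. Alternatives were other scalings and filters, DESeq2 1.42.0, fewer libraries, a replicate block and each library left out. The fit was tested on simulated data.

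Genes were named by a rule: in each contrast the 8 called genes with the largest log2 fold change in each direction with libraries that did not overlap (a condition not set for the shifts) and a mean of 1 CPM or more in either group, the 6 highest in chromatin of each cell type, and tested genes opposite a developmental transcription factor gene. Replicate numbers pair the mESC libraries, where same-numbered deviations correlated at 0.264 to 0.607. In mNPC and mCtx these correlations between fractions were weak, at -0.0793 to 0.0976. The same-numbered cytoplasm library was still the best match there, except for replicates 2 and 3 of mNPC nucleoplasm. The main fit had no replicate term. The labels call the replicates biological.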

Additional observations from a re-analysis of the deposited data

Results flagged for a closer look

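The chromatin-to-cytoplasm log2 fold change differed between cell types, by the interaction term in edgeR, in 29 instances among the genes that the naming rule took for these contrasts. In 6 of them a group had 3 or fewer counts, so no fold is given: Dlx6os1 from mNPC to mCtx and from mESC to mCtx, Hnf1aos1, Emx2os and Med9os from mESC to mCtx, and Kdm6bos from mESC to mNPC. The other 23 follow. From mESC to mNPC the differences were 2.99 for B9d1os, 2.64 for Etaa1os, 3.16 for Man2c1os, -1.70 for Atad3aos, -2.76 for Brip1os, -1.79 for Junos, -2.09 for Lrp8os3, -2.18 for Mkln1os, -2.63 for Rab26os and -1.91 for Tnfsf13os. From mNPC to mCtx they were -3.06 for Appbp2os, -2.76 for Gad1os, -4.05 for H3f3aos, -3.90 for Mypopos, -3.64 for Phtf1os, -2.94 for Tomm6os and -2.85 for Zmiz1os1. From mESC to mCtx they were 2.01 for B9d1os, 1.20 for Man2c1os, -3.62 for Atad3aos, -3.60 for H3f3aos, -3.97 for Mettl5os and -4.0 for Mypopos.

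Several of these rest on few counts. From mESC to mNPC, Atad3aos was not called under 7 of its leave-outs and was at -2.66 without mESC cytoplasm replicate 1, Lrp8os3 not without mESC cytoplasm replicate 3 (-1.76), and Tnfsf13os not without mNPC cytoplasm replicate 1 (-1.63). Junos was at -2.48 without mESC cytoplasm replicate 1, where Mkln1os also moved by over 1.5 times, and Rab26os at -3.55 without mESC cytoplasm replicate 2. From mESC to mCtx, B9d1os was at 1.21 and not called without mESC cytoplasm replicate 1 and at 1.74 and not called without mESC chromatin replicate 3, and Man2c1os was not called under 4 leave-outs. Atad3aos was at -3.02 without mESC chromatin replicate 1 and -4.50 without mESC cytoplasm replicate 1, and Mettl5os at -3.29 without mCtx cytoplasm replicate 1. Mypopos was at -4.92 without mNPC cytoplasm replicate 1 in the second comparison and at -4.88 without mESC cytoplasm replicate 2 in the third.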

How the results depend on the processing

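Of 252 recomputed counts of called genes, 237 were within 1.5 times the reported count, and of 3110 recomputed values of named genes 2961 kept direction and call, 136 were no longer called and 13 changed sign. With limma on log2(TPM + 1) the number of opposite-strand genes called was 67 for chromatin against cytoplasm in mCtx, 14 and 10 for nucleoplasm against cytoplasm in mESC and mCtx, and 45, 23 and 46 in cytoplasm from mESC to mNPC, mNPC to mCtx and mESC to mCtx. For the chromatin-to-cytoplasm shift in those 3 comparisons it was 53, 55 and 69, and 253 genes rather than 107 were tested on that scale. With the compared libraries alone the count was 22 of 45 tested for nucleoplasm in mESC and 49 of 55 and 50 of 57 in cytoplasm from mESC to mNPC and to mCtx. It was 30 for nucleoplasm in mESC without mESC replicate 1 in all fractions, 11 for nucleoplasm in mCtx without mCtx nucleoplasm replicate 1, and 19 for nucleoplasm in mNPC with no minimum fold. The cause was not tested.

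With each library left out in turn, the counts for chromatin against cytoplasm ran from 61 to 75 in mESC, 54 to 59 in mNPC and 39 to 43 in mCtx, and those for nucleoplasm from 30 to 51, 10 to 17 and 11 to 16. In chromatin they ran from 84 to 89, 48 to 54 and 77 to 87 over the 3 cell type comparisons in the order mESC to mNPC, mNPC to mCtx and mESC to mCtx, in cytoplasm from 70 to 75, 43 to 52 and 74 to 81, and for the shift from 12 to 18, 23 to 27 and 38 to 45. With a replicate block the counts were 70, 62 and 38 for chromatin, 49, 15 and 19 for nucleoplasm, 82, 50 and 80 between cell types in chromatin, 76, 45 and 78 in cytoplasm, and 18, 31 and 43 for the shift. The block ended no call of a named gene.

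On the log2(TPM + 1) scale the sign changed for chromatin against cytoplasm of H3f3aos (0.22) and Zmiz1os1 (1.39) in mCtx and Abhd11os (0.71) in mESC. It changed for nucleoplasm against cytoplasm of Gssos1 (-0.17) in mCtx and of Ino80dos (-0.26) and Kcnd3os (-0.23) in mNPC, and in chromatin for Srrm4os (0.71, mESC to mCtx) and Frs3os (0.60, mESC to mNPC). The shift changed sign for Man2c1os (-2.17 from mESC to mCtx, -1.34 from mESC to mNPC) and Kdm6bos (0.41, mESC to mNPC). The shift of Med9os from mESC to mCtx ran from -4.32 to 0.29 with libraries left out, was 0.29 without mESC chromatin replicate 1 and 0.17 without mESC replicate 1 in all fractions. The cause was not tested. Depth limits the 163 genes under the filter and folds that rest on a group of 3 or fewer counts.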
